A study of Homo sapiens with 18 samples.

Results

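The 10 immediate early genes FOS, FOSB, JUN, JUNB, EGR1, ATF3, IER2, IER3, KLF6 and MYC were followed through cultures of A549 cells held with or without airborne formaldehyde. They were chosen by name, as all probe sets of the array whose platform annotation gives exactly 1 of these gene symbols, which took in 21 of 54675 probe sets and 10 of 19775 genes. FOS, FOSB, JUNB, IER2, IER3 and MYC had 1 probe set each, EGR1 and ATF3 had 3, JUN had 4 and KLF6 had 5. A549 is a line of human lung carcinoma cells, grown here on membranes with their upper side in contact with air. In each of 9 experiments 1 culture stayed for 72 h in the exposure chamber and 1 in the reference chamber, which received the same humidified air without the formaldehyde stream. Formaldehyde in the exposure chamber was set to 0, 0.1 or 0.5 ppm, with 3 experiments at each setting, so that 6 groups of 3 arrays resulted. Every culture came from the same line, so the spread within a group is that between experiments with 1 line and not between donors.

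Immediate early genes are transcribed within minutes after a growth factor or a stress reaches the cell, without the need for new protein, because the factors that switch them on are already present and are activated by kinases such as ERK, JNK and p38. The FOS and JUN proteins pair into the transcription factor AP-1, EGR1 and KLF6 are zinc finger factors, ATF3 is a stress-induced partner of JUN, and MYC drives growth. Their RNA is short-lived, so after a long exposure it is a reading of the state of the cells at harvest rather than of the first contact with a stimulus.

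The promoters of FOS, EGR1, JUN, ATF3 and KLF6, shown because the signals of these 5 genes moved together on the arrays, are given for the 180 bases before the transcription start, from RefSeq on GRCh38.p14, read 5' to 3' on the strand of the gene. For ATF3 this is the first of its starts with an entry. Capitals mark matches, on either strand, to TGACGT (the core of the cAMP response element), TGACATCA (the form of the AP-1 site known from the JUN promoter), the CArG box of serum response factor and TATAAA.
FOS, chr14:75278648-75278827, plus strand: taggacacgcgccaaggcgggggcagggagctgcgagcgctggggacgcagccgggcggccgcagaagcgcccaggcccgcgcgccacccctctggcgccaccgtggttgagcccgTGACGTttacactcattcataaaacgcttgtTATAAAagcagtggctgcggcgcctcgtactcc
EGR1, chr5:138465299-138465478, plus strand: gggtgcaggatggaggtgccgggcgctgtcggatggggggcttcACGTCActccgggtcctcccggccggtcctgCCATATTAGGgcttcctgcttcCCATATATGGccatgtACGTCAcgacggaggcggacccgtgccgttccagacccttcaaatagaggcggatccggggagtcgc
JUN, chr1:58784048-58784227, minus strand: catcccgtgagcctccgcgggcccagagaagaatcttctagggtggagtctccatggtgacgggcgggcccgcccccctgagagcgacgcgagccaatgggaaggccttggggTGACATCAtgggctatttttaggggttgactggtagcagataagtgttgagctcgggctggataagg
ATF3, chr1:212565227-212565406, plus strand: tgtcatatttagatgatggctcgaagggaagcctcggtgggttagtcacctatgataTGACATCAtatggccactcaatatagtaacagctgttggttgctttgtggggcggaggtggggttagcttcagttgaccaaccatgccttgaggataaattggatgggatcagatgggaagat
KLF6, chr10:3785210-3785389, minus strand: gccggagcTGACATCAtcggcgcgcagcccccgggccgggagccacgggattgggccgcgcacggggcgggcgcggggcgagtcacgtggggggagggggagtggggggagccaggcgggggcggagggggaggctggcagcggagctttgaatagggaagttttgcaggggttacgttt

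EGR1 held a pair of CArG boxes, 105 to 96 and 83 to 74 bases before its start, and a pair of TGACGT matches on the other strand. FOS held TGACGT from 64 to 59 and TATAAA from 33 to 28 bases before its start. JUN held TGACATCA from 67 to 60, ATF3 from 123 to 116 and KLF6 from 172 to 165 bases before the start. Windows of 8 of the 10 genes were searched, and IER3 and MYC were left out. Of these 8, TGACATCA was found in 3 (JUN, ATF3 and KLF6), against 2.11% of all 35116 promoter windows of this length. TGACGT was found in 3 of the 8 (FOS, FOSB and EGR1) against 5.97%, TATAAA in 3 (FOS, FOSB and JUNB) against 7.83% and the CArG box in 1 (EGR1) against 0.874%. A gene was counted if any of its windows matched, while the percentages are per window. The window of the second ATF3 start, not shown, held none of these motifs. TGACATCA was taken from the JUN promoter, so its match in JUN was fixed in advance. The motifs were chosen after the sequences had been seen and do not overlap in the windows shown. Bases more than 180 before a start were not searched, so a motif not listed for a gene may lie farther away. A match describes the letters and no binding was measured here.

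The arrays held the RNA of epithelial cells by these markers. KRT18, a keratin of simple epithelium, lay at the 99.4th percentile of mean log2 signal over all probe sets, the adhesion proteins EPCAM and CDH1 at the 81.7th and 94.9th, and NQO1, an antioxidant enzyme abundant in A549, at the 99.9th. KRT19 was dimmer, at the 59.1st percentile, and the blood cell markers PTPRC and CD3E and the endothelial markers VWF, CDH5 and KDR lay between the 1.74th and 22.3rd. Above them were CD14 of monocytes at the 63.5th percentile, PECAM1 of endothelium at the 50.7th and COL1A1 of fibroblasts at the 74.1st, while the 5 other fibroblast markers lay between the 19.6th and 40.9th. RNA quality was read from the probe set at the 5' end of actin, whose signal drops when RNA is degraded. Among reference cultures its log2 signal was 5.90 for replicate 1 at 0.1 ppm and 6.85 for replicate 3 at 0 ppm, and the remaining 16 arrays ranged from 7.75 to 9.70. The fold changes of FOS, EGR1 and MYC, the medians over the list and the correlations are given below with and without this pair of arrays. The array of the 0 ppm exposure chamber, replicate 2, carries another date in the name of its raw file than the remaining arrays.

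The first question was whether formaldehyde left these genes at another level. At the threshold the study used, p below 0.05 without adjustment, limma called none of the 21 probe sets in any comparison. Between exposure and reference chamber the count was 0 at 0 ppm, where 4.84% of all probe sets passed, 0 at 0.1 ppm, where 4.00% passed, and 0 at 0.5 ppm, where 3.92% passed. In the exposure chamber it was 0 for 0.1 against 0 ppm, with 4.47% of all probe sets, and 0 for 0.5 against 0 ppm, with 4.56%. The lowest unadjusted p among the 21 was 0.140, 0.179, 0.304, 0.0512 and 0.0580 in these 5 comparisons, and no probe set of the array passed after adjustment. The difference among the 3 sets of reference chambers, none of which held formaldehyde, was called by the F test for 0 of 21 probe sets and 3.88% of all. Whether the difference between chambers itself depended on the concentration was tested on the 9 differences within experiments, and 0 of 21 probe sets and 3.92% of all passed, with the lowest p, 0.0967, at the dimmest of the EGR1 probe sets. Counts under other settings, which ran up to 4 of 21 (4.65% of all probe sets there), are given with the dependence on the processing. The 3 arrays of a group did not overlap with the other 3 for 0 of 21 probe sets at 0 ppm (10% of all), 1 at 0.1 ppm (7.87%) and 0 at 0.5 ppm (6.75%) between chambers. For 0.1 against 0 ppm this was 1 of 21 (8.57%) and for 0.5 against 0 ppm 0 of 21 (8.55%).

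In what follows the probe set with the highest mean log2 signal over 18 arrays stands for its gene unless another is named. At 0 ppm 8 of 10 genes were higher in the exposure than in the reference chamber, against 42.4% of all 19775 genes. Their median log2 fold change was 0.19, against -0.098 over all genes. At 0.1 ppm 8 of 10 were higher (42.9% of all genes), with a median of 0.51 against -0.087. At 0.5 ppm 8 of 10 were higher (43.9%), with a median of 0.046 against -0.037. After quantile normalization the median over all probe sets at 0 ppm was -0.016 instead of -0.071, and that of the 10 genes stayed 0.19. Without the low 5' actin array the median of the 10 genes was 0.12 at 0 ppm and 0.18 at 0.1 ppm. With 1 array left out in turn it ran from 0.052 to 0.30 at 0 ppm, from 0.18 to 1.03 at 0.1 ppm and from -0.10 to 0.35 at 0.5 ppm, where it was below 0 without reference replicate 1 (-0.10), reference replicate 3 (-0.015) or exposure replicate 2 (-0.091). In the exposure chamber 9 of 10 were higher at 0.1 than at 0 ppm (44.1% of all genes), with a median of 0.36 against -0.040. At 0.5 ppm 3 of 10 were higher than at 0 ppm (44.6%), with a median of -0.18 against -0.036. The direction of the first of these medians depended on 1 array: it was -0.044 without replicate 3 at 0 ppm and 0.057 without replicate 2 at 0.1 ppm, with a highest value of 0.55, while the other ran from -0.33 to -0.017. Both comparisons within the exposure chamber share the 0 ppm exposure arrays, and the genes share arrays and are not independent, so these counts describe the list and carry no test.

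**Figure D1:**
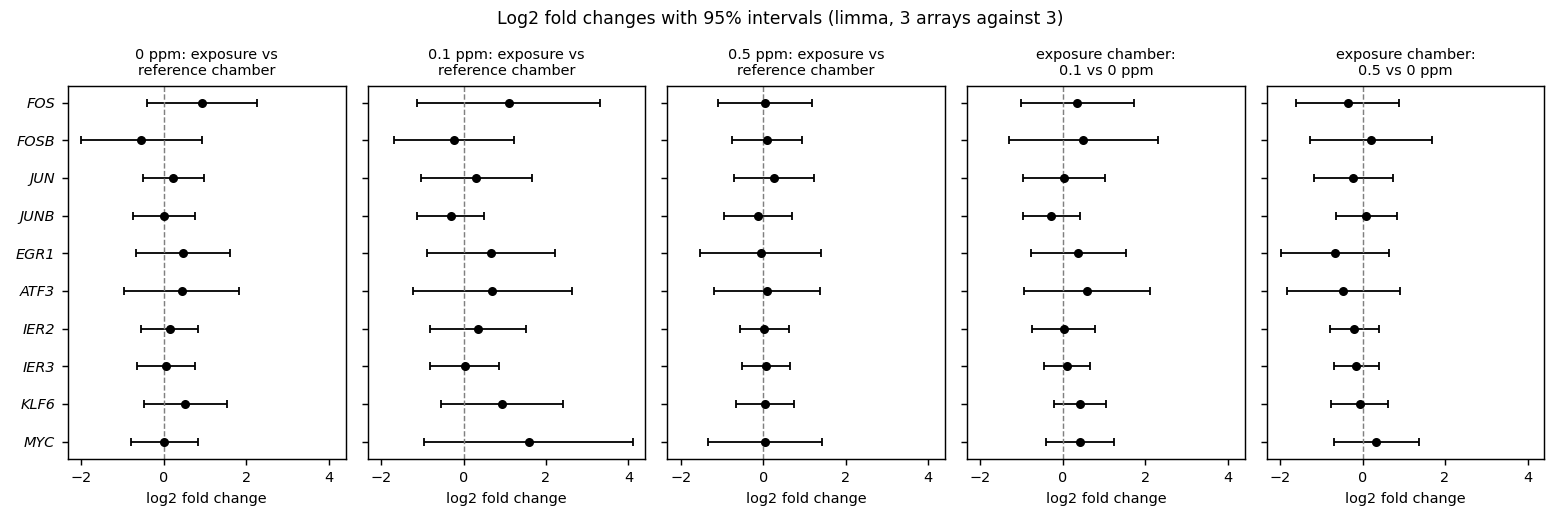
Log2 fold change (horizontal axis) of the brightest probe set of each of the 10 genes (rows) in 5 comparisons of 3 arrays with 3, as points with 95% intervals from limma. Every interval spans 0, and the widest are those of MYC and FOS at 0.1 ppm against the reference chamber.

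FOS, the partner of JUN in AP-1, was the gene with the largest log2 fold change between chambers at 0 ppm. In the 0 ppm experiments, replicates 1 to 3, its log2 signal was 7.08, 6.72 and 5.78 in the reference chamber and 8.11, 7.64 and 6.58 in the exposure chamber. In the 0.1 ppm experiments it was 4.96, 8.49 and 6.64 in the reference and 7.56, 8.59 and 7.23 in the exposure chamber. In the 0.5 ppm experiments it was 6.60, 7.79 and 6.73 in the reference and 6.80, 7.72 and 6.73 in the exposure chamber. In each of the 5 comparisons the groups overlapped, the lowest arrays were the pair of low 5' actin signal, and the highest were both chambers of the 0.1 ppm experiment, replicate 2. The log2 fold change between chambers was 0.92 at 0 ppm (95% interval -0.42 to 2.25), 1.10 at 0.1 ppm (-1.13 to 3.32) and 0.042 at 0.5 ppm (-1.11 to 1.19). In the exposure chamber it was 0.35 for 0.1 against 0 ppm (-1.02 to 1.72) and -0.36 for 0.5 against 0 ppm (-1.61 to 0.89). FOS was higher in the exposure chamber in 7 of 9 experiments, among them 3 of the 3 in which neither chamber held formaldehyde.

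With the experiment as a block, which pairs its chambers, FOS at 0 ppm passed the unadjusted threshold in limma, with the same log2 fold change of 0.92 and a standard error of 0.28 instead of 0.54, but not after adjustment, where the lowest adjusted p of the 21 probe sets was 0.813. Without the 0 ppm reference array of low 5' actin signal its log2 fold change was 0.55, and without that of the 0.1 ppm experiments the value at 0.1 ppm was 0.23. The part of RNA quality in these differences was not tested.

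FOSB, a FOS relative, was dim. Its log2 signal ran from 4.14 to 6.88, with the lowest value in the 0 ppm exposure chamber, replicate 3, and the highest in both chambers of the 0.1 ppm experiment, replicate 2. The mean log2 fold change between chambers at 0 ppm was -0.55 (95% interval -2.02 to 0.93) and 0.10 without that lowest array.

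JUN, the other side of AP-1, had log2 signals of 10.63, 10.54 and 10.49 in the 0 ppm reference chamber and of 11.23, 10.51 and 10.61 in the exposure chamber. At 0.1 ppm they were 9.82, 11.38 and 10.27 in the reference and 10.87, 11.37 and 10.16 in the exposure chamber. At 0.5 ppm they were 10.44, 10.59 and 9.86 in the reference and 10.44, 11.17 and 10.05 in the exposure chamber. As for FOS, both chambers of the 0.1 ppm experiment, replicate 2, held the highest values and the groups overlapped in all 5 comparisons. The log2 fold change was 0.25 at 0.5 ppm (95% interval -0.71 to 1.22), the highest of the 10 genes there. The 3 dimmer JUN probe sets followed the brightest with r = 0.69, 0.83 and 0.67 over 18 arrays.

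JUNB, which forms AP-1 dimers of weaker activity than JUN, varied little. Its log2 signal was 9.09, 9.21 and 9.14 in the 0 ppm reference chamber and 9.03, 9.58 and 8.82 in the exposure chamber. In the 0.1 ppm experiments it was 8.97, 9.20 and 9.36 in the reference and 8.80, 8.92 and 8.87 in the exposure chamber. At 0.1 ppm all 3 exposure values lay below all 3 reference values, the only one of the 21 probe sets without overlap there. The log2 fold change was -0.32 (95% interval -1.12 to 0.49). At 0.5 ppm the values of 9.30, 8.90 and 9.85 in the reference and 9.14, 9.03 and 9.52 in the exposure chamber overlapped.

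EGR1, a zinc finger factor induced by growth factors and by stress, had log2 signals of 11.51, 11.11 and 10.52 in the 0 ppm reference chamber and of 11.87, 11.93 and 10.73 in the exposure chamber. At 0.1 ppm they were 10.80, 12.47 and 10.38 in the reference and 11.66, 12.48 and 11.50 in the exposure chamber. At 0.5 ppm they were 10.27, 11.91 and 10.54 in the reference and 10.51, 11.69 and 10.32 in the exposure chamber. Replicate 2 of the 0.1 and of the 0.5 ppm experiments was the highest of its group in each chamber, and no group stood clear of the others. The log2 fold changes between chambers were 0.47 at 0 ppm (95% interval -0.68 to 1.61), 0.67 at 0.1 ppm (-0.88 to 2.21) and -0.066 at 0.5 ppm (-1.54 to 1.41). Without the low 5' actin array they were 0.20 at 0 ppm and 0.46 at 0.1 ppm. Between exposure arrays EGR1 had the lowest fold change of the 10 genes for 0.5 against 0 ppm, -0.67 (95% interval -1.98 to 0.64), and a value of 0.37 for 0.1 against 0 ppm (-0.78 to 1.52). The 2 dimmer EGR1 probe sets followed the brightest with r = 0.96 and 0.82 over 18 arrays.

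ATF3, a factor induced by stress that binds DNA alone or with JUN, had log2 signals of 9.10, 8.84 and 7.86 in the 0 ppm reference chamber and of 9.83, 9.16 and 8.11 in the exposure chamber. At 0.1 ppm they were 7.93, 10.49 and 8.32 in the reference and 9.04, 10.55 and 9.24 in the exposure chamber. At 0.5 ppm they were 8.05, 9.35 and 8.03 in the reference and 8.32, 9.27 and 8.11 in the exposure chamber. The order of experiments was close to that of EGR1, and the exposure chamber was higher in 8 of 9. The fold change for 0.1 against 0 ppm in the exposure chamber was the highest of the 10 genes, 0.58 on the log2 scale (95% interval -0.94 to 2.10). With 1 array left out in turn it ran from 0.11, without replicate 2 at 0.1 ppm, to 0.98. The dimmest ATF3 probe set, with a mean log2 signal of 1.32, was called for this comparison in some of the other settings.

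KLF6, a zinc finger factor with growth-restraining roles, had log2 signals of 12.40, 12.05 and 11.16 in the 0 ppm reference chamber and of 12.65, 12.45 and 12.08 in the exposure chamber. At 0.1 ppm they were 10.67, 12.94 and 12.03 in the reference and 12.68, 13.02 and 12.72 in the exposure chamber. At 0.5 ppm they were 12.18, 12.60 and 12.07 in the reference and 12.20, 12.67 and 12.11 in the exposure chamber. KLF6 was thus higher in the exposure chamber in 9 of 9 experiments, a pattern held by 0.828% of the 18470 probe sets with a mean log2 signal of 7 or more, while 2.85% of them were lower in all 9. The difference ran from 0.016 to 2.01 on the log2 scale, with the highest values in the experiments of the low 5' actin arrays (2.01 and 0.92) and values of 0.016, 0.069 and 0.039 in the 3 experiments at 0.5 ppm. Of its other probe sets the second brightest was higher in 7 of 9 experiments and followed the brightest with r = 0.95, while the 3 dimmer ones were higher in 4, 4 and 2 of 9 and had r = 0.22, 0.35 and 0.16. In the exposure chamber all 3 values at 0.1 ppm lay above all 3 at 0 ppm, again the only one of the 21 probe sets, with a log2 fold change of 0.41 (95% interval -0.23 to 1.06).

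IER2, a nuclear protein induced with FOS, had log2 signals from 11.08 to 12.40, with the lowest value in the 0.1 ppm reference chamber, replicate 1, and the highest in that of replicate 2. Its log2 fold changes lay between -0.20 and 0.35 in the 5 comparisons. IER3, which protects cells against death under stress, was the steadiest of the list, with log2 signals from 12.98 to 13.73, and its fold changes lay between -0.15 and 0.096. Its intervals were among the narrowest and reached from -0.51 to 0.66 at 0.5 ppm against the reference chamber.

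MYC, the driver of growth and ribosome formation, had log2 signals of 7.94, 7.70 and 7.37 in the 0 ppm reference chamber and of 8.05, 7.74 and 7.26 in the exposure chamber. At 0.1 ppm they were 4.17, 8.42 and 6.995 in the reference and 8.35, 8.30 and 7.66 in the exposure chamber. At 0.5 ppm they were 7.70, 8.94 and 7.27 in the reference and 8.34, 8.43 and 7.29 in the exposure chamber. A single array, that of lowest 5' actin signal, stood far below the rest. It set the log2 fold change of 1.58 at 0.1 ppm (95% interval -0.95 to 4.10), the highest of the 10 genes there, and without it the value was 0.40.

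**Figure D2:**
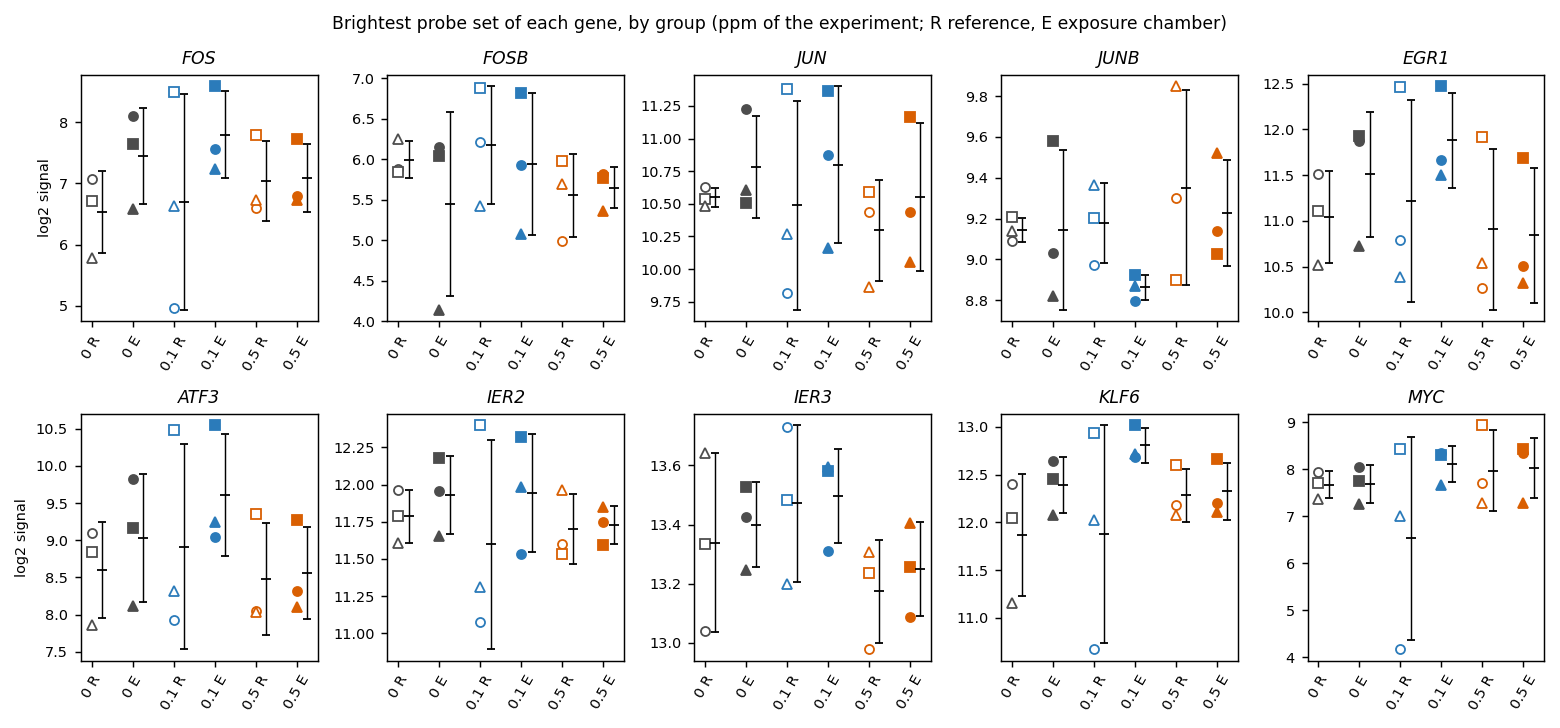
Log2 signal (vertical axis) of the brightest probe set of each of the 10 genes in 6 groups (horizontal axis, ppm of the experiment with R for reference and E for exposure chamber). Circles, squares and triangles are replicates 1, 2 and 3, open for the reference chamber, and bars show mean ± SD (n = 3): the squares at 0.1 ppm are the highest points for FOS, EGR1 and ATF3 in both chambers, and MYC has 1 low circle at 4.17.

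With the 6 groups of a gene ranked by their means, neighbouring groups were seldom apart by more than their spread. Only neighbours were compared, not groups farther apart in rank, and no such count was made over all genes. Over the 10 genes, 49 of 50 gaps between neighbouring group means were smaller than the larger of both SDs. The exception was KLF6, where 12.81 ± 0.18 (SD, n = 3) in the 0.1 ppm exposure chamber was followed by 12.39 ± 0.29 at 0 ppm. For FOS the order ran from the 0.1 ppm exposure chamber (7.79 ± 0.71) through the exposure chambers at 0 ppm (7.44 ± 0.78) and 0.5 ppm (7.08 ± 0.56) to the reference chambers of the 0.5 ppm (7.04 ± 0.65), 0.1 ppm (6.70 ± 1.77) and 0 ppm experiments (6.53 ± 0.67), with no gap above the spread.

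Several genes were high or low in both chambers of the same experiment. By the mean of both chambers the 0.1 ppm experiment, replicate 2, was the highest of 9 for 8 of 10 genes, all but JUNB and MYC. Its means were 8.54 for FOS, 12.47 for EGR1, 10.52 for ATF3 and 11.37 for JUN, and the reference culture, which received no formaldehyde, was as high as the exposed one (differences of 0.10, 0.0085, 0.062 and -0.011 on the log2 scale). In the 0.1 ppm experiment, replicate 2, IER3 was highest by the mean only and in neither chamber alone (13.48 in the reference, 13.58 in the exposure chamber). The share of all genes that were highest in that experiment was not counted. That experiment also had the highest 5' actin log2 signal of each chamber, 9.70 in the reference and 9.18 in the exposure chamber. The part of RNA quality in its high values was not tested. The 0.5 ppm experiment, replicate 2, was second for FOS, EGR1 and KLF6 and highest for MYC. The 0 ppm experiment, replicate 3, was lowest by this mean for FOS, FOSB, ATF3 and KLF6. For FOSB only its exposure array was low (4.14), while the reference array was at 6.25.

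The signals of both chambers were therefore compared over the 9 experiments, as 10 relations with exact permutation p-values, two-sided and adjusted over the 10. For ATF3 they rose and fell together (r = 0.88, exact p = 0.00144, adjusted 0.0144, rho = 0.88, exact p = 0.00308, adjusted 0.0308). Without the 2 experiments farthest from the median r was 0.81 over 7 experiments (exact p = 0.0258, adjusted 0.125) and no longer passed after adjustment. Whether this came from those 2 experiments or from the smaller number was not tested. Without the experiments of low 5' actin signal r was 0.91 (adjusted 0.0169). EGR1 had r = 0.79 (exact p = 0.0130, adjusted 0.0649, rho = 0.82, exact p = 0.0108, adjusted 0.0538), and IER2 r = 0.72 (exact p = 0.0269, adjusted 0.0897, rho = 0.63, exact p = 0.0760). Neither passed after adjustment. The r of FOS was 0.59, of JUN 0.65, of KLF6 0.38, of IER3 0.099 and of MYC 0.025, and without the experiments of low 5' actin signal these values were 0.80, 0.84, 0.72, 0.66 and 0.79. Of these 5, only JUN passed after adjustment there (exact p = 0.000595, adjusted 0.00595). Over the 18470 probe sets with a mean log2 signal of 7 or more the median r between chambers was 0.38, and that of ATF3 was higher than in 98.5% of them, which describes these arrays and is no test.

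The spread over arrays was wide for some of these genes. The SD over 18 arrays was 0.91 on the log2 scale for FOS, larger than that of 99.0% of these 18470 probe sets, 0.84 for ATF3 (98.3%), 0.75 for EGR1 (96.6%) and 1.02 for MYC (99.5%). Over the 9 exposure arrays, which hold no array of low 5' actin signal, it was 0.67 for FOS (98.9%), 0.81 for ATF3 (99.7%), 0.73 for EGR1 (99.4%) and 0.46 for MYC (92.1%). Over 18 arrays the SD was 0.59 for KLF6 (89.0%), 0.47 for JUN (75.5%) and 0.34 for IER2 (44.2%). JUNB and IER3 varied little, with SDs of 0.28 and 0.21 over 18 arrays, larger than in 29.0% and 11.1%. The mean log2 signals of FOS (7.10) and MYC (7.66) lie near the lower limit of the probe sets compared. Spread was not compared among probe sets of like signal.

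**Figure D3:**
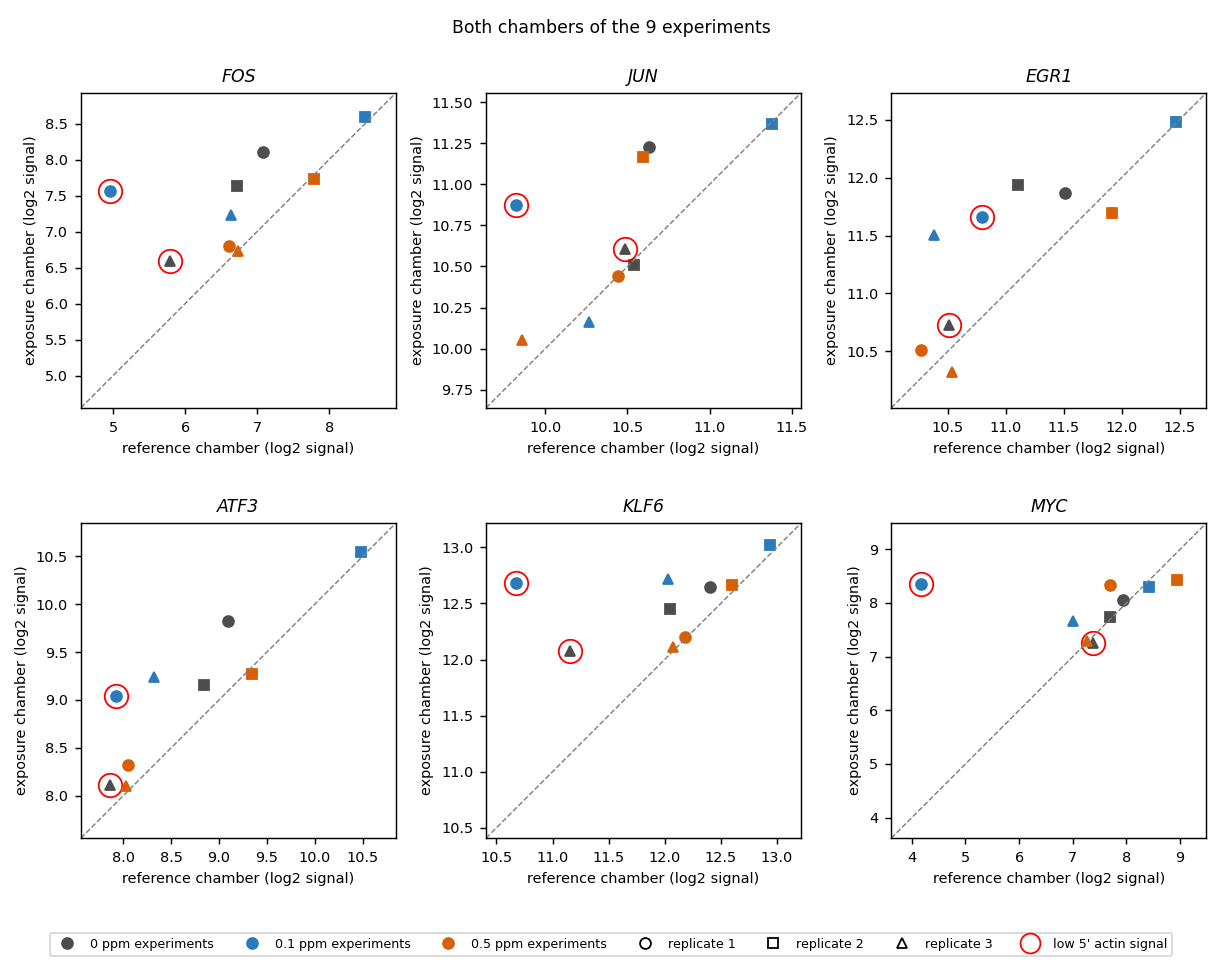
Log2 signal in the exposure chamber (vertical axis) against that in the reference chamber (horizontal axis) of the same experiment for FOS, JUN, EGR1, ATF3, KLF6 and MYC. Colours are the ppm of the experiment, symbols the replicate, the dashed line marks equal signals, and red rings mark the experiments whose reference array had a low 5' actin signal: the 0.1 ppm experiment, replicate 2, lies close to the line at or near the top for all 6 genes.

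Several of the genes also moved with each other. Over the 9 reference arrays, where no culture received formaldehyde, FOS was compared with the 9 other genes, with exact permutation p-values adjusted over the 9 relations. The strongest relation was with KLF6 (r = 0.97, exact p = 4.68e-05, adjusted 0.000422, rho = 0.90, exact p = 0.00203, adjusted 0.0138). ATF3 followed (r = 0.87, exact p = 0.000187, adjusted 0.000843, rho = 0.88, exact p = 0.00308, adjusted 0.0138), then MYC (r = 0.85, exact p = 0.00317, adjusted 0.00952, rho = 0.80, exact p = 0.0138, adjusted 0.0415). JUN had r = 0.78 (exact p = 0.0152, adjusted 0.0342, rho = 0.75, exact p = 0.0255, adjusted 0.0459), EGR1 r = 0.75 (exact p = 0.0194, adjusted 0.0349, rho = 0.75, exact p = 0.0255, adjusted 0.0459) and IER2 r = 0.74 (exact p = 0.0239, adjusted 0.0359, rho = 0.63, exact p = 0.0760, adjusted 0.114). FOSB, JUNB and IER3 had r = 0.24, 0.034 and -0.42, with exact p-values of 0.537, 0.924 and 0.262.

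KLF6 followed the 5' actin signal over the 9 reference arrays by both measures (r = 0.95, exact p = 0.000438, adjusted over 10 genes 0.00438, rho = 0.93, exact p = 0.000750, adjusted 0.00750). FOS passed by r alone (r = 0.89, exact p = 0.00200, adjusted 0.0100, rho = 0.78, exact p = 0.0172, adjusted 0.0850). So did MYC (r = 0.78) and IER2 (r = 0.76), with adjusted p-values of 0.0390 and 0.0473 by exact permutation, and IER3 had r = -0.68. Without the low 5' actin pair none of the 10 passed after adjustment, with unadjusted exact permutation p-values for r of at least 0.0359, and r was 0.66 for FOS, 0.79 for KLF6, 0.45 for MYC and -0.0095 for IER3. Over the exposure arrays r was 0.64, 0.51, 0.78 and -0.12 for these 4 genes and none passed after adjustment, with unadjusted exact p-values for r from 0.0117 for MYC upwards. What part RNA quality had in the shared variation of the genes was not tested.

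**Figure D4:**
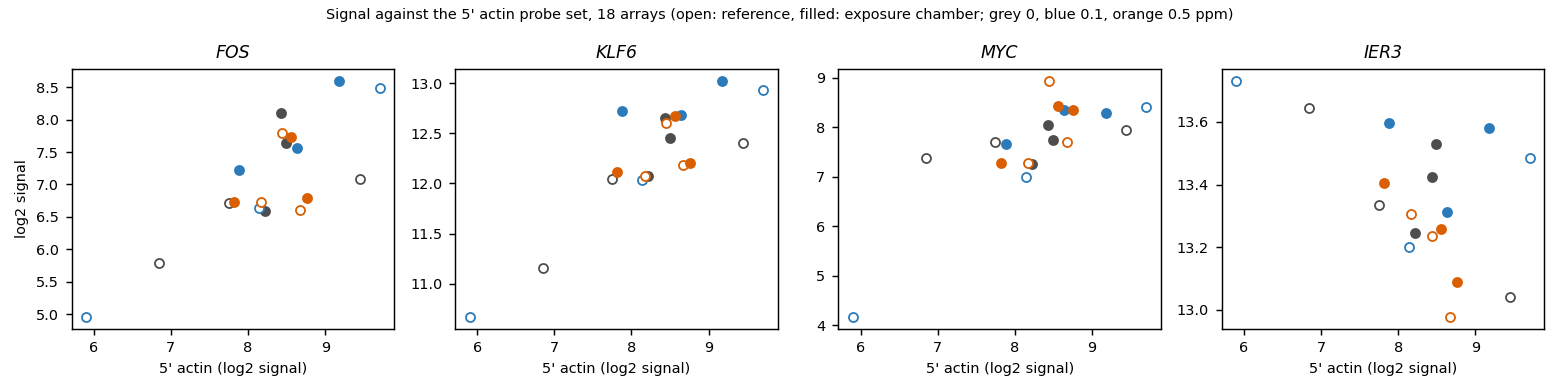
Log2 signal of FOS, KLF6, MYC and IER3 (vertical axes) against the log2 signal of the 5' actin probe set (horizontal axis) on 18 arrays, open for the reference and filled for the exposure chamber. The arrays at 5.90 and 6.85 on the horizontal axis hold the lowest FOS and KLF6 and the highest IER3 signals, and the lowest MYC signal lies at 5.90.

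Without these arrays FOS was compared again over the remaining 7 reference arrays. With EGR1 r was 0.93 (exact p = 0.000595, adjusted 0.00268, rho = 0.96, exact p = 0.00278, adjusted 0.0125). ATF3 and KLF6 passed by r alone, with r = 0.94 (exact p = 0.00198, adjusted 0.00595) and 0.97 (exact p = 0.00337, adjusted 0.00759), while rho was 0.79 for both (exact p = 0.0480, adjusted 0.0864). JUN (r = 0.82, exact p = 0.0171, adjusted 0.0307, rho = 0.71, adjusted 0.132) and MYC (r = 0.79, exact p = 0.0312, adjusted 0.0467, rho = 0.79, adjusted 0.0864) also passed by r alone. IER2 no longer passed (r = 0.59, exact p = 0.179, adjusted 0.202), and FOSB, which had not passed over 9 arrays, did so here (r = 0.88, exact p = 0.000397, adjusted 0.00268, rho = 0.96, adjusted 0.0125).

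In the exposure chamber, over 9 arrays, r was 0.97 with ATF3 (exact p = 0.000143, adjusted 0.00128, rho = 0.93, exact p = 0.000750, adjusted 0.00675) and 0.94 with EGR1 (exact p = 0.000284, adjusted 0.00128, rho = 0.90, exact p = 0.00203, adjusted 0.00913). It was 0.82 with FOSB (exact p = 0.00557, adjusted 0.0125, rho = 0.83, exact p = 0.00827, adjusted 0.0248) and 0.81 with JUN (exact p = 0.00955, adjusted 0.0172, rho = 0.78, exact p = 0.0172, adjusted 0.0388). KLF6 passed by r alone (r = 0.90, exact p = 0.00151, adjusted 0.00454, rho = 0.72, exact p = 0.0369, adjusted 0.0664). MYC (r = 0.60, exact p = 0.0933, adjusted 0.140) and IER2 (r = 0.54, exact p = 0.135, adjusted 0.160) did not pass in this chamber.

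Without the 2 reference arrays farthest from the median FOS signal, replicates 1 and 2 of the 0.1 ppm experiments, r was 0.84 with ATF3 (exact p = 0.00198, adjusted 0.0170) and 0.94 with KLF6 (exact p = 0.00377, adjusted 0.0170), with rho = 0.79 for both (exact p = 0.0480, adjusted 0.144). JUN (r = 0.22, exact p = 0.549) and IER2 (r = 0.060, exact p = 0.910) had low values there. Leaving out the extremes also narrows the range of FOS and lowers the number of arrays. Whether these 2 relations rest on that pair of arrays was therefore not tested. EGR1 kept its r (0.78, exact p = 0.0198, adjusted 0.0595) and MYC had r = 0.78 (exact p = 0.0645, adjusted 0.145), and neither passed after adjustment.

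Over all 45 pairs of the 10 genes, 19 had r above 0.5 in the reference and in the exposure chamber, and all 19 kept such an r in the reference chamber without the low 5' actin pair. These 19 took in all 6 pairs of FOS, JUN, EGR1 and ATF3, a set named after its values were seen. The share of all gene pairs of the array with such values was not counted, so these counts describe the list and carry no test. JUNB had an r with FOS of 0.034 in the reference and -0.16 in the exposure chamber.

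**Figure D5:**
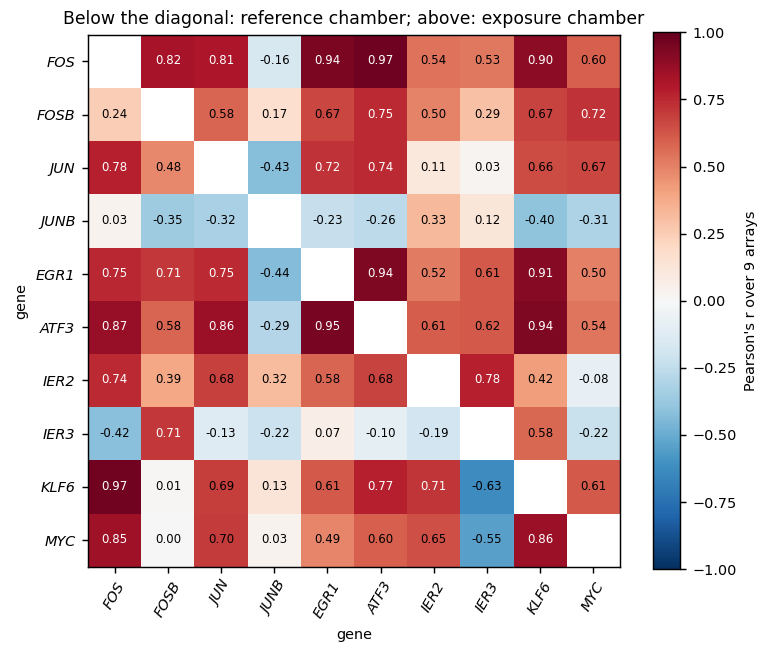
Pearson's r between the log2 signals of each pair of the 10 genes, over 9 reference arrays below the diagonal and over 9 exposure arrays above it. FOS, JUN, EGR1, ATF3 and KLF6 share values of 0.61 or more on both sides of the diagonal, while JUNB stays between -0.44 and 0.33.

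The genes of the array most like each member were taken by r over 18 arrays, among 9916 genes with a mean log2 signal of 7 or more. For FOS they were EMP1, KLF6 and KPNA4 (r = 0.95 each), for EGR1 they were ATF3, CCDC134 and GINS3 (0.95, 0.91 and 0.90) and for ATF3 EGR1, COTL1 and BUB1 (0.95, 0.93 and 0.92). KLF6 was most like RHOB, MTMR2 and TBP (0.98, 0.97 and 0.96), MYC like AREL1, CEBPB and UBE2Z (0.95, 0.93 and 0.93) and JUN like NSUN2, PRR11 and FOXK2 (0.94, 0.91 and 0.90). IER2 was nearest to ANKRD40 (0.88), IER3 to ANKRD10 (0.86), FOSB to CDC25A (0.84) and JUNB to MINDY2-DT (0.69). The 18 arrays share their experiments in pairs and include those of low 5' actin signal, so these values carry no test.

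Genes around this group were counted from 4 lists: related factors of the AP-1, EGR, KLF and MYC families (20 genes), other immediate early and feedback genes (27), the kinases and factors upstream (16) and targets downstream (23). Over the 5 comparisons 10 of 430 gene tests passed the unadjusted threshold, or 2.33%, against 2.99% to 3.69% of all genes by comparison, and 0 passed after adjustment in limma. Of the related factors 4 of 100 tests passed, of the other immediate early genes 4 of 135, of the upstream genes 1 of 80 and of the targets 1 of 115. CCN2, a secreted matrix protein of the immediate early type, was higher at 0.1 than at 0 ppm in the exposure chamber, with a log2 fold change of 0.82 (standard error 0.33, adjusted p = 1.00) from a mean log2 signal of 6.91 to 7.73. MRTFA, a cofactor of serum response factor, was lower there, from 7.70 to 6.95 (log2 fold change -0.75, standard error 0.24).

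The other called genes were dim, with mean log2 signals from 0.65 to 3.56 over 18 arrays. EGR4, of the EGR family, was lower in the exposure than in the reference chamber at 0.1 ppm (log2 fold change -1.28) and higher at 0.5 ppm (1.80, limma adjusted p = 0.535). DUSP2, a phosphatase that ends MAP kinase signals, had -1.52 at 0 ppm between chambers and 1.43 for 0.1 against 0 ppm. BATF and MYCN had -1.65 and 1.19 at 0 ppm, the protease MMP9 had -1.30 at 0 ppm and ARC 1.85 at 0.5 ppm between chambers.

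Markers of cell types were counted in the same way. Of 35 tests of epithelial markers 2 passed, both of KRT19, which was higher in the exposure chamber at 0.1 and 0.5 ppm than at 0 ppm (mean log2 signals of 6.46 and 6.34 against 5.29). These 2 tests share the 0 ppm exposure arrays, and neither passed after adjustment in limma. Of the A549 metabolic genes 0 of 30 tests passed and of the endothelial markers 0 of 20 in limma. Of the fibroblast markers 5 of 30 passed, 3 higher and 2 lower, and of the blood cell markers 1 of 15, each at a mean log2 signal of at most 3.60 over 18 arrays. Their part in the values of the immediate early genes was not tested.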

How the data were processed

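RNA of 18 A549 cultures was amplified, labelled and hybridised to arrays with 54675 probe sets. The authors computed MAS5 signals with 1 intensity per probe set and array, and the deposited intensities are on a linear scale with the mean of each array set to 500 (trimmed by 2% at each end). Groups and concentrations were read from the labels, and the authors' own comparisons were not used. Genes were named from the platform annotation, where 41097 probe sets name 1 gene, 1801 several and 11777 none. The 10 genes and all lists were chosen with earlier results of these data known.

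Log2 intensities were compared in limma 3.58.1 (R 4.3.3) by lmFit and eBayes over all probe sets, 3 arrays against 3. The study's threshold, an unadjusted p below 0.05, was used, with Benjamini-Hochberg adjustment over all probe sets beside it. Correlations were tested by exact permutation over all pairings (two-sided, scipy 1.17.1 and numpy 2.4.6). The code was tested on simulated data. No pair of arrays had an r above 0.951, so none was counted as a duplicate. No hybridisation batch is given in the sources used here, and the number of arrays limits the precision.

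The highest mean log2 signal chose the probe set of a gene. All members are described, values with a test were planned for called members only, and those of FOS, EGR1 and the extremes of a comparison were added after seeing the data. Up to 2 called genes per list and comparison and the 3 genes most like each member are named. Chambers of the same experiment share a replicate number and a raw file number, so the number pairs them there. The correlation of their deviations from group means ran from -0.010 to 0.66 over probe sets with a mean log2 signal of 7 or more and from -0.020 to 0.12 over all probe sets, where it was the highest with the own partner in 6 of 9 experiments. Alternatives were quantile normalization, log2(signal + 32), a filter on dim probe sets, eBayes with a trend, all 18 arrays in the fit, the replicate block, and leaving out arrays.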

Additional observations from a re-analysis of the deposited data

How the results depend on the processing

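The number of the 21 probe sets called was 0 in each comparison and stayed 0 in 72 of the 91 alternative counts. Percentages in brackets are the shares of all probe sets called in the same fit. For exposure against reference chamber at 0 ppm the count was 1 with the replicate block (FOS, 5.69%). At 0.1 and 0.5 ppm it was 0 with this block (4.48% and 5.32%). For 0.1 against 0 ppm in the exposure chamber it was 2 with a trend in eBayes (the dimmest probe sets of JUN and ATF3, 3.71%). With all 18 arrays in the fit it was 1 (3.52%). For 0.5 against 0 ppm it was 1 after quantile normalization (the dimmest ATF3 probe set, 4.71%) and 1 with a trend (the second brightest EGR1 probe set, 3.8%). Among reference chambers it was 1 on the log2(signal + 32) scale (2.62%) and 1 with a trend (2.52%), each the second brightest JUN probe set. The test of the chamber difference over concentrations gave 0 without the replicate block. In the comparisons between concentrations the replicate number pairs no samples, and the count with it as a block was 0. Leaving out 1 array at a time, the count ran from 0 to 1 at 0 ppm, 0 to 4 at 0.1 ppm and 0 to 1 at 0.5 ppm between chambers, from 0 to 1 and from 0 to 3 for 0.1 and 0.5 against 0 ppm, and from 0 to 1 in both F tests. In these fits the share of all probe sets called ran from 3.79% to 9.11%. The 1 at 0 ppm came without exposure replicate 2, the array of another date (the dimmest KLF6 probe set, 4.41%), or without exposure replicate 3 (FOS, 5.02%). The 4 at 0.1 ppm (FOS, EGR1, KLF6 and MYC, 4.65%) came without the reference array of replicate 2. That fit keeps the low 5' actin array of replicate 1 in a smaller reference group. The 3 at 0.5 against 0 ppm came without exposure replicate 2 at 0.5 ppm (5.01%). The cause was not tested. Without the arrays of low 5' actin signal the count was 0 wherever such an array takes part. There is no low 5' actin array at 0.5 ppm or among exposure arrays to leave out.

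With 1 array left out in turn, the log2 fold change of FOS ran from -0.28 to 0.42 at 0.5 ppm between chambers and from -0.078 to 0.68 for 0.1 against 0 ppm, and that of EGR1 from -0.49 to 0.44 and from -0.020 to 0.58. FOSB ran from -0.90 to 0.10 at 0 ppm, JUN from -0.052 to 0.50 and JUNB from -0.35 to 0.13 at 0.5 ppm. The directions of these 7 values are therefore not settled. The correlation of FOS with IER3 over reference arrays, -0.42, was 0.035 after quantile normalization, 0.58 without the low 5' actin arrays and 0.53 in the exposure chamber. That with JUNB, 0.034, was -0.017 after quantile normalization, -0.016 on the log2(signal + 32) scale, -0.46 without the low 5' actin arrays, -0.16 in the exposure chamber and -0.32 without the 2 arrays farthest from the median. That with FOSB, 0.24, was -0.038 without those 2 arrays. No other fold change or correlation of FOS with a test changed sign. With 3 arrays a group, the narrowest intervals of FOS and EGR1 were wider than 2 log2 units.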
